A study of Homo sapiens with 192 samples.

Results

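The accessible chromatin around MYC was examined in single nuclei of HAP1, a near-haploid adherent human cell line that descends from a chronic myeloid leukemia line. The members were all features of the count table that lay on chromosome 8 between 126 Mb and 131 Mb of hg38, a window of 5 Mb that holds MYC, PVT1 and the gene-poor sequence on both sides of them. A feature is a region of 1001 bp around the summit of a peak that the authors called on all nuclei together. The rule used positions and no measured value, and it found 166 members among 80971 features, against 4262 features on the rest of chromosome 8. The features that faced each other across the lower edge started at 125916700 and 126014873 and were each seen in 2 nuclei. Across the upper edge, those starting at 130832770 and 131013677 were seen in 2 and 3 nuclei.

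Plate-based snATAC-seq had been run on 2 plates of 96 sorted nuclei. In this assay the Tn5 transposase cuts open chromatin and inserts sequencing adapters, so that read pairs mark accessible DNA. Nuclei that carried a CASB label (a barcode oligonucleotide held on the nuclear membrane by the lectin concanavalin A) and unlabeled nuclei had been pooled before tagmentation, and the labels name no treatment and no genetic change. Which nuclei were labeled was not known here, so the members were described over all nuclei and by plate, and each plate counted as 1 sample. After peaks of a single nucleus were dropped, 83 nuclei on plate 1 and 79 on plate 2 had more than 300 peaks and are called passing nuclei. They held 240092 and 238287 read pairs in features, with a median of 2029 and 2162 per nucleus and a range from 345 to 15351 over both plates. Intervals are exact Clopper-Pearson intervals at 95% and cover counting error only, since read pairs without molecular identifiers are not independent molecules.

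MYC encodes a basic helix-loop-helix transcription factor that binds E-box DNA as a dimer with MAX and drives growth, ribosome production and cell division. Its promoters lie close together at the start of the gene, and its transcription is set by enhancers spread over a large gene-poor domain on both sides. PVT1, the long noncoding RNA gene directly downstream, holds several of these enhancers, and its promoter is known to compete with that of MYC for them. In blood-forming cells a cluster of enhancers far downstream of MYC is used, while epithelial cancers use elements upstream of it, among noncoding genes such as CASC8 and PCAT1.

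Some wells shared peaks, and this bears on every count that follows. On each plate, peaks seen in exactly 2 nuclei were concentrated in pairs of wells, nuclei 37 to 48 with nuclei 73 to 84, whose numbers differ by 36, and nuclei 73 to 84 with nuclei 85 to 96, whose numbers differ by 12. The labels give these numbers and not the positions on the plate. Of the 63 members seen in exactly 2 nuclei, 44 (69.8%) were seen in such paired wells, beside 70.8% over all features. In 57 members (34.3%) no passing nucleus outside these wells held the feature, beside 32.2% of all features. The counts below are over all passing nuclei, and most are followed by the number among the 91 passing nuclei outside the paired wells.

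The members were sparsely covered, and so were features in general. A member kept after the filter was seen in a mean of 4.75 and a median of 3 passing nuclei, beside 5.10 and 3 over all features. The ratio of these means was 0.932, and it turned to 1.06 when peaks of at least 5 nuclei were kept. Of the members, 17 (10.2%) were seen in at least 10 passing nuclei, near the 11.4% of all features. Outside the paired wells 4 members (2.41%) reached that number, beside 2.45% of all features. Peaks shared between paired wells can also be counted once, and 14 members then had at least 10. Read pairs in members numbered 466 on plate 1 (0.194% of those in features, 0.177 to 0.213) and 432 on plate 2 (0.181%, 0.165 to 0.199), and the intervals of the plates overlapped. At least 1 member was seen in 70 of 83 nuclei on plate 1 (84.3%, 74.7 to 91.4) and in 68 of 79 on plate 2 (86.1%, 76.5 to 92.8). Outside the paired wells the share was 76.9% (70 of 91 nuclei, 66.9 to 85.1).

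Most members lay in annotated introns. There were 107 members in introns of coding or noncoding genes (64.5%, beside 45.9% of features on the rest of the chromosome), 29 between genes (17.5%, beside 31.3%), 10 over exons and 20 that held an annotated transcription start, the last being 12% of members, 14.9% of features on the rest of the chromosome and 17.2% of all features. Members with a start were seen in a mean of 8.15 passing nuclei and those without in 4.27, beside 8.57 and 4.35 over all features with and without a start. The plot of members along the window shows isolated tall bars among features held by fewer nuclei, with 31 members held by 5 to 9.

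**Figure D1:**
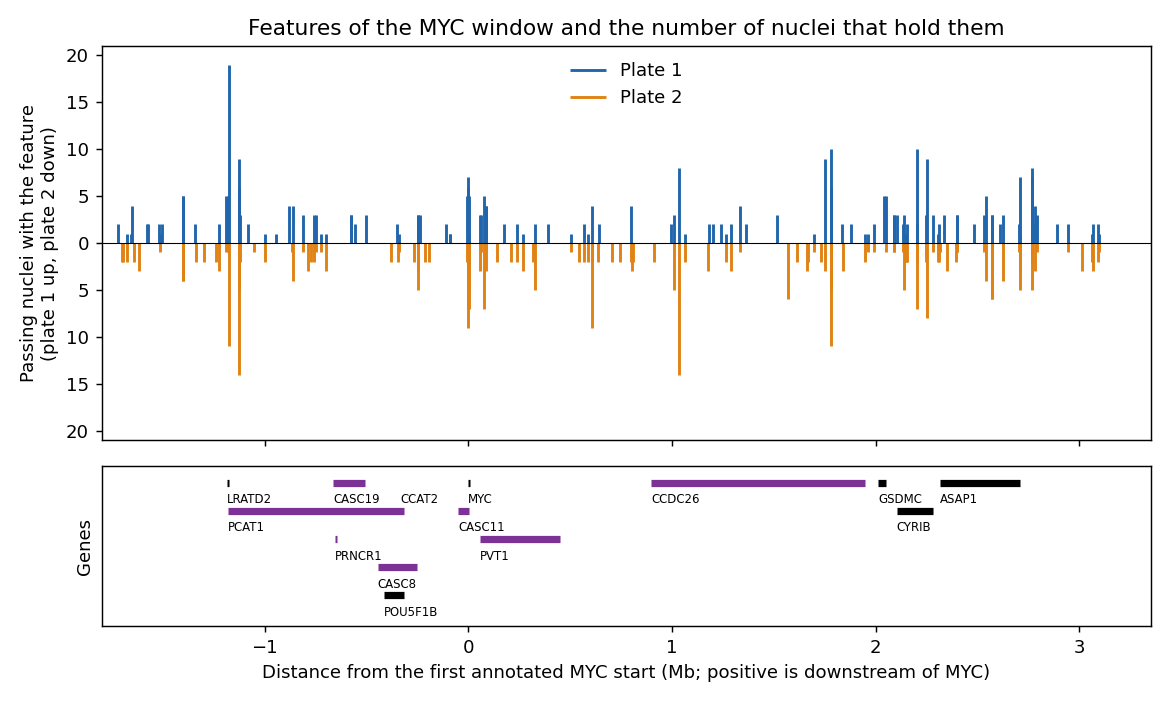
Number of passing nuclei holding each of the 166 members (vertical axis, plate 1 upward and plate 2 downward) against the distance from the first annotated MYC start in Mb, with protein-coding genes in black and long noncoding genes in purple. The tallest bars stand at the LRATD2 start 1177 kb upstream (19 nuclei on plate 1, 11 on plate 2) and in a PCAT1 intron and a CCDC26 intron (14 nuclei each on plate 2).

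Within 10 kb of the first annotated MYC start lay 6 members, most of which held a start. Of them, 4 (66.7%) were seen in at least 10 passing nuclei, beside 11.4% of all features and 31.1% of those with a start. Among these 4 are 2 members that overlap and share read pairs. Outside the paired wells none of the 6 was seen in more than 8 nuclei, where 2.45% of all features reached 10. The member over the start of the canonical MYC transcript (at 127736231) was chr8:127735682-127736682. It was seen in 7 of 83 nuclei on plate 1 (8.43%, 3.46 to 16.6) and in 9 of 79 on plate 2 (11.4%, 5.34 to 20.5). These intervals overlapped over most of their length, and the share over both plates was 9.88% (16 of 162 nuclei, 5.75 to 15.5). That share was 1.70% with 600 read pairs drawn per nucleus, 1.85% with at least 2 read pairs and 17.9% with any annotated start. Outside the paired wells the member was seen in 7 nuclei (7.69%), and 14 nuclei had it when shared peaks were counted once. Among 20020 protein-coding genes, 8785 (43.9%) had a feature at the canonical start, seen in a median of 8 passing nuclei with quartiles of 5 and 13. The MYC feature was seen in more nuclei than 81.9% of them, and 15.5% were seen in more nuclei than MYC.

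The other members near MYC were at its further starts and at CASC11, a long noncoding RNA gene that runs in the opposite direction from the same region. The member over the first annotated MYC start (chr8:127734942-127735942) was seen in 6 nuclei on plate 1 and 4 on plate 2, of which 4 were outside the paired wells. It overlapped the member at the canonical start by 261 bp, so that a read pair there counted in both, and 19 nuclei held at least 1 of the 2 members and 7 held both. The member at the canonical CASC11 start, 1.27 kb upstream, was seen in 5 and 7 nuclei on plates 1 and 2, with 8 outside the paired wells. A member 3.53 kb downstream, which held further starts of both MYC and CASC11, was also seen in 5 and 7 nuclei, but only 4 of the 12 were outside the paired wells. A member 2.32 kb downstream was seen in 1 and 5 nuclei, with 1 outside the paired wells, and one in a CASC11 intron 7.71 kb upstream in 5 and 2, with 4 outside. The plates thus differed in both directions among these low counts. Taking the 6 members as a unit, 21 nuclei on plate 1 (25.3%, 16.4 to 36) and 20 on plate 2 (25.3%, 16.2 to 36.4) held at least 1 of them, 21 of 91 outside the paired wells (23.1%, 14.9 to 33.1), and 13 nuclei held at least 2.

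**Figure D2:**
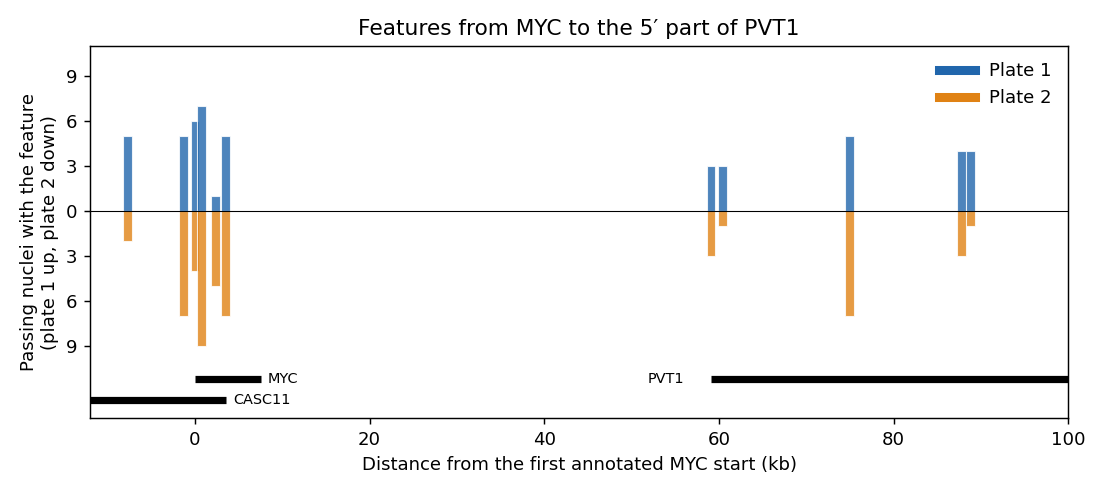
Number of passing nuclei holding each member (vertical axis, plate 1 upward and plate 2 downward) from 12 kb upstream to 100 kb downstream of the first annotated MYC start, with bars 1 kb wide and the genes below. The MYC start members stand together at up to 7 and 9 nuclei, no member lies between MYC and the PVT1 start, and the member in the first part of PVT1 at 75 kb (5 and 7 nuclei) is taller than that at the PVT1 start (3 and 3).

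PVT1 was seen at its start in 6 passing nuclei and at 1 member inside the gene in 12, with overlapping intervals. The member over the canonical PVT1 start (at 127794541, 59.1 kb downstream of MYC) was chr8:127794035-127795035. It was seen in 3 nuclei on each plate, 3.70% of all passing nuclei (1.37 to 7.89), with 4 of the 6 outside the paired wells. The share was 0.663% with 600 read pairs drawn per nucleus, 0% with at least 2 read pairs and 8.64% with any annotated start. The next member held a further PVT1 start and that of MIR1204, the first of the microRNA genes hosted by PVT1, and was seen in 3 and 1 nuclei, with 1 outside the paired wells. In a PVT1 intron, chr8:127809924-127810924 at 75 kb was seen in 5 and 7 nuclei, and 9 of these 12 were outside the paired wells. Another intronic member at 87.8 kb was seen in 4 and 3 nuclei, and one at 326.6 kb in 2 and 5, each with 2 outside the paired wells. The interval for the PVT1 start (1.37 to 7.89%) overlapped that for the MYC start (5.75 to 15.5%), which was seen in more nuclei on both plates, and the difference between the starts was not tested. At least 1 of the 14 members over PVT1 was seen in 29.6% of passing nuclei (48 of 162, 22.7 to 37.3), and in 25.3% outside the paired wells (23 of 91). No feature lay over the starts of the other PVT1 microRNA genes, MIR1205, MIR1206, MIR1207 and MIR1208.

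In the gene-poor stretch downstream of PVT1, the members seen most often lay about 1033 kb and 1780 kb from MYC, within CCDC26, a long noncoding RNA gene. The first in order was in an intron of the lncRNA gene ENSG00000286034, 608.7 kb downstream (chr8:128343612-128344612), seen in 4 and 9 nuclei on plates 1 and 2, with 6 outside the paired wells. At 1033 kb, chr8:128768369-128769369 in a CCDC26 intron was seen in 8 nuclei on plate 1 (9.64%, 4.25 to 18.1) and 14 on plate 2 (17.7%, 10.0 to 27.9), with 12 outside the paired wells. Among 63303 kept features without a start, 402 (0.635%) were seen in at least as many nuclei as this one. It was picked for its high count among the window's 141 kept members without a start, so this small share follows in part from that choice. Its plate intervals overlapped despite the higher count on plate 2.

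Further along CCDC26, chr8:129484322-129485322 at 1749 kb was seen in 9 and 3 nuclei on plates 1 and 2, with 5 outside the paired wells. The overlapping pair chr8:129514030-129515030 and chr8:129514706-129515706, at about 1779 and 1780 kb, was seen in 10 and 5 and in 6 and 11 nuclei, with 7 and 6 outside the paired wells. The members of this pair, which overlap by 325 bp, were thus ordered in opposite ways on the plates, and together they were held by 23 nuclei, 9 of which held both. The canonical CCDC26 start had a feature seen in 3 nuclei, none of them on plate 1 and 1 of them outside the paired wells. Over the whole gene, 27 members lay in CCDC26 and at least 1 was seen in 48.1% of passing nuclei (78 of 162, 40.2 to 56.1), or in 35.2% outside the paired wells (32 of 91, 25.4 to 45.9).

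From 500 to 10 kb upstream of MYC no member was seen often. Of the 13 members there, none held a start and none was seen in 10 passing nuclei. Among all features 11.4% were seen in at least 10. Among those without a start the share was 7.36%, which is near none for so few members. No nucleus outside the paired wells held 10 of the 13 (76.9%), beside 32.2% of all features. The member seen most often there was chr8:127489666-127490666, between genes and 245.3 kb upstream, in 3 and 5 nuclei, with 3 outside the paired wells. The stretch holds CASC8, a noncoding gene, and POU5F1B, a retrogene copy of the pluripotency factor POU5F1. At least 1 of the 5 CASC8 members was seen in 3 nuclei on plate 1 and 7 on plate 2. None of those 10 nuclei was among the 91 outside the paired wells, whose exact interval runs from 0 to 3.97%. The canonical starts of POU5F1B, CASC8 and CCAT2 in this stretch had no feature. Those of CASC19 and PRNCR1, farther upstream at 550.2 and 655.6 kb, had none either. Of all protein-coding genes, 43.9% had a feature at the canonical start.

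The member seen most often in the whole window was the start of LRATD2, a protein-coding gene 1177 kb upstream of MYC. Its feature, chr8:126557968-126558968, was seen in 19 nuclei on plate 1 (22.9%, 14.4 to 33.4) and 11 on plate 2 (13.9%, 7.16 to 23.5), with 18 outside the paired wells. It was the only member held by over 20% of nuclei on a plate, although the plate intervals overlapped. The feature was seen in more nuclei than 97.6% of the features at protein-coding starts. As the highest count of the window, it ranks high there in part because of how it was picked. The feature also lies within PCAT1, a long noncoding RNA gene known from prostate cancer, which held the second most frequent member as well, in an intron 1124 kb upstream (chr8:126610789-126611789), seen in 9 and 14 nuclei, with 13 outside the paired wells. That member formed a run of 3 overlapping members that 26 nuclei held at least in part. Farther upstream, a pair of overlapping members between genes at about 1401 kb was held by the same 9 nuclei.

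The downstream end of the window holds protein-coding genes. CYRIB, which encodes a regulator of the small GTPase RAC1, had a member at a further start 2205 kb downstream of MYC (chr8:129939437-129940437), seen in 10 and 7 nuclei, with 6 outside the paired wells. A member in its intron at 2253 kb (chr8:129988055-129989055) was seen in 9 and 8 nuclei, with 11 outside the paired wells. No feature lay over the canonical CYRIB start. The start of ASAP1, which encodes an activator of ARF GTPases, was seen in 7 and 3 nuclei, with 4 outside the paired wells, and the start of GSDMC, a gene of the pore-forming gasdermin family, in 5 and 1, with 5 outside. Between genes at 2768 kb, chr8:130503351-130504351 was seen in 8 and 5 nuclei, with 7 outside the paired wells. In order of passing nuclei, the 10 members seen most often held 30, 23, 22, 17, 17, 17, 16, 15, 13 and 13, and the intervals of neighbours in this order overlapped at every step.

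No member differed between the plates by the rule that exact intervals do not overlap: 0 of 161 kept members passed it, beside 0.0792% of all kept features (61 of 77053). Without the paired wells no member passed either, beside 0.00649% of all kept features. Of the 17 members seen in at least 10 passing nuclei, 9 had the higher share on plate 1 and 8 on plate 2, beside 3932 and 5331 of all 9263 features seen in at least 10. Members seen on plate 1 alone numbered 38, those on plate 2 alone 39 and those on both 84 (52.2%, beside 59.1% of all kept features). Most members seen on 1 plate alone were seen in few nuclei, and of 48 members seen in at least 5 passing nuclei 46 were seen on both plates, beside 28147 of 29005 such features overall. At these counts only large differences could have passed.

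**Figure D3:**
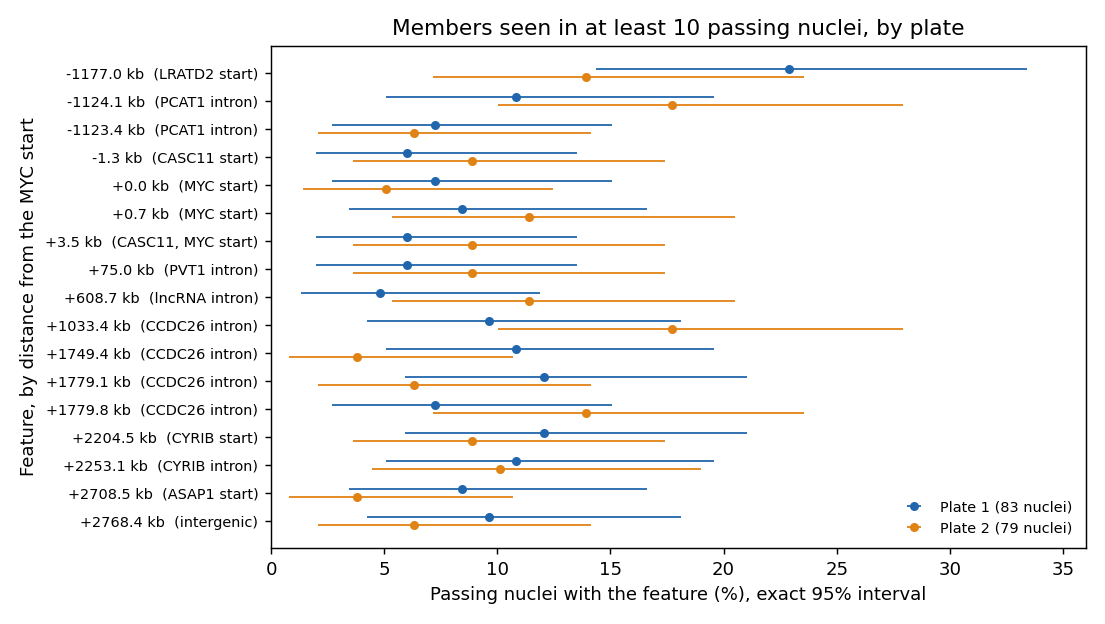
Share of passing nuclei holding each of the 17 members seen in at least 10 of them (horizontal axis, percent), with exact 95% intervals for plate 1 (83 nuclei) and plate 2 (79 nuclei), ordered by distance from the first annotated MYC start. The intervals of the plates overlap for every member drawn, and the LRATD2 start has the highest share on plate 1 (22.9%).

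How many members a nucleus held followed its depth. Over 162 passing nuclei, Spearman's rho between the number of members and the number of peaks per nucleus was 0.729, and both numbers come from the same library and rise with its read pairs. Ordered by number of peaks and divided into groups of 54, the nuclei held a median of 1, 4 and 8 members, and 17, 5 and 2 nuclei held none. At least 1 of the 6 members within 10 kb of MYC was held by 4, 11 and 26 of the 54 nuclei, and the canonical MYC start by 2, 2 and 12. A nucleus without a read pair at MYC is therefore not shown to be closed there. Relative to all peaks of the nuclei the members' share was 0.193%, 0.231% and 0.181% in the 3 groups, so it did not rise with depth.

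Compared with other windows of 5 Mb, that of MYC was near the middle. Among 583 windows of a fixed grid with at least 20 features, the median held 138 features and 161 held more than the 166 around MYC. The mean number of passing nuclei per kept feature was 4.75 around MYC and 5.01 in the median window, and 365 windows were above it. Features without a start had a mean of 4.27 around MYC and 4.20 in the median window. The share of features that held a start was 12% against a median of 16.7%, and 404 windows were above it. The adjoining 5 Mb upstream and downstream held 171 and 150 features with a mean of 5.44 and 4.52 passing nuclei. The grid ranged from 2.78, on chromosome 16 from 85000001 to 90000000, to 9.22, on chromosome 21 from 5000001 to 10000000, windows with only 39 and 24 features.

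**Figure D4:**
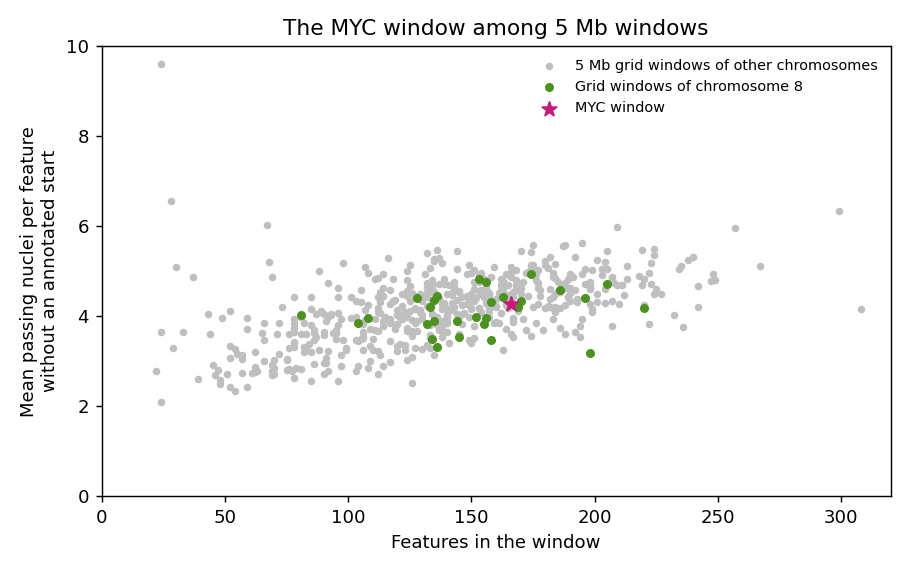
Mean number of passing nuclei per kept feature without a start (vertical axis) against the number of features (horizontal axis) in windows of 5 Mb, with grid windows of other chromosomes in grey, those of chromosome 8 in green and the MYC window as a star. The MYC window stands inside the cloud at 166 features and 4.27 nuclei.

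Within the window the 20 kb around the first MYC start held 6 members with a mean of 10.5 passing nuclei. No other 20 kb of the window held more, and the next fullest, within CYRIB, held 5. The other stretches, of 441.7 to 1265 kb, held 26.5 to 36.4 features per Mb, and their kept members had means of 3.00 to 5.13. Upstream of the MYC start lay 60 members, of which the 56 kept had a mean of 4.39, and downstream lay 106, of which the 105 kept had a mean of 4.94. On plate 1 the means were 2.43 and 2.46 and on plate 2 they were 1.96 and 2.49. The means thus lay further apart on plate 2, and a difference between the sides was not tested. Outside the paired wells the order turned, with 2.07 upstream and 1.96 downstream. In the stretch from the end of PVT1 to 1 Mb downstream, 10 of 15 members (66.7%) were seen in no nucleus outside the paired wells, beside 32.2% of all features. None of these members held a start, and 1 (6.67%) was seen in at least 10 passing nuclei. That is near the 7.36% of all features without a start, beside 11.4% of all features.

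The members had much the base composition of features elsewhere. Their median GC content was 42.2%, beside 41.4% over all features, and the median of the members seen in at least 10 passing nuclei was 48.8%, beside 49.8% of all such features. Exact matches to 6 short motifs, none of which contains another, were counted on both strands as a description, and a match is not a bound site. The letters bound by MYC and MAX (the E-box CACGTG) were in 10.8% of members and 10.8% of all features. The AP-1 letters TGANTCA were in 29.5% of members and 27.7% of all features, GATAAG of the GATA factors in 24.7% and 27.9%, and a CTCF fragment, AGATGGC, in 16.3% and 13.8%. The GC box GGGCGG was in 16.3% of members and 25.5% of all features, and among features without a start in 11% and 14.6%. The RUNX letters TGTGGT were in 57.8% of members and 47.4% of all features, and without starts in 61% and 50.4%. The LRATD2, MYC and CYRIB start members had a GC content of 62.5%, 60% and 68% and each held a GC box. The CCDC26 member at 1033 kb had 34.9% and held the AP-1 letters. Of the 10 members without a start seen in at least 10 passing nuclei, 3 (30%) held those letters, beside 31.8% of all such features.

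MYC acts with a family of related proteins, and the starts of their genes were read in the same nuclei. Of 13 genes that encode MYC proteins, their partners MAX and MLX or the proteins that share these partners, 9 had a feature at the canonical start, beside 43.9% of all protein-coding genes. MYCN, the MYC relative best known from neuroblastoma, was seen in 15 nuclei on plate 1 and 14 on plate 2, with 13 outside the paired wells. MXD1, which pairs with MAX and opposes MYC, was seen in 9 and 13 nuclei, with 13 outside the paired wells, and MAX itself in 9 and 9, with 9 outside. The plates overlapped for each of these 3. The 250 bases before the RefSeq start of MYCN (chr2:15940300-15940549, GRCh38.p14, plus strand) and of MXD1 (chr2:69914859-69915108, plus strand) are shown because these were the start features of the family seen in the most nuclei, and the capitals mark the GC box on either strand.
MYCN: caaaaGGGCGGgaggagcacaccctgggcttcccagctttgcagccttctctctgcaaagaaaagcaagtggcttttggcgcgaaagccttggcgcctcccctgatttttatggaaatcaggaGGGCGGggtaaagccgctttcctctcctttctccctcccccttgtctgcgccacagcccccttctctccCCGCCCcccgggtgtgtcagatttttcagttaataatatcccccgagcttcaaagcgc
MXD1: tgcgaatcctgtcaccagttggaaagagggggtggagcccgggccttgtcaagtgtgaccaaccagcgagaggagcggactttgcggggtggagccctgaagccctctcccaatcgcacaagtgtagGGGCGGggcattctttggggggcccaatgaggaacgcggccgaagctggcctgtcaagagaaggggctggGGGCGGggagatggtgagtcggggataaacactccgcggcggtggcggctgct
The MYCN stretch holds 3 GC boxes and that of MXD1 holds 2, and neither holds CACGTG. Over 35116 RefSeq stretches of the same length, 42.6% hold a GC box and 6.34% hold CACGTG.

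The remaining members of the family were seen in fewer nuclei. MXD4 and MXI1, which also pair with MAX, were seen in 5 and 12 and in 6 and 5 nuclei on plates 1 and 2, with 7 and 6 outside the paired wells. MYCL, the third MYC protein gene, was seen in 4 and 2, the MAX partner MNT in 3 and 2, and MXD3 in 2 and 3, with 2, 2 and 4 outside. No feature lay over the canonical starts of MGA, MLX, MLXIP and MLXIPL. With MYC at 7 and 9 nuclei, 6 of the 13 genes were seen in at least 10 passing nuclei, beside 17.8% of all protein-coding genes. Outside the paired wells 2 of the 13, MYCN and MXD1, were seen in at least 10, beside 5.48% of all protein-coding genes. The MYCN interval (12.3 to 24.7%) overlapped that of MYC (5.75 to 15.5%), MYCN was seen in more nuclei on both plates, and the difference was not tested.

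**Figure D5:**
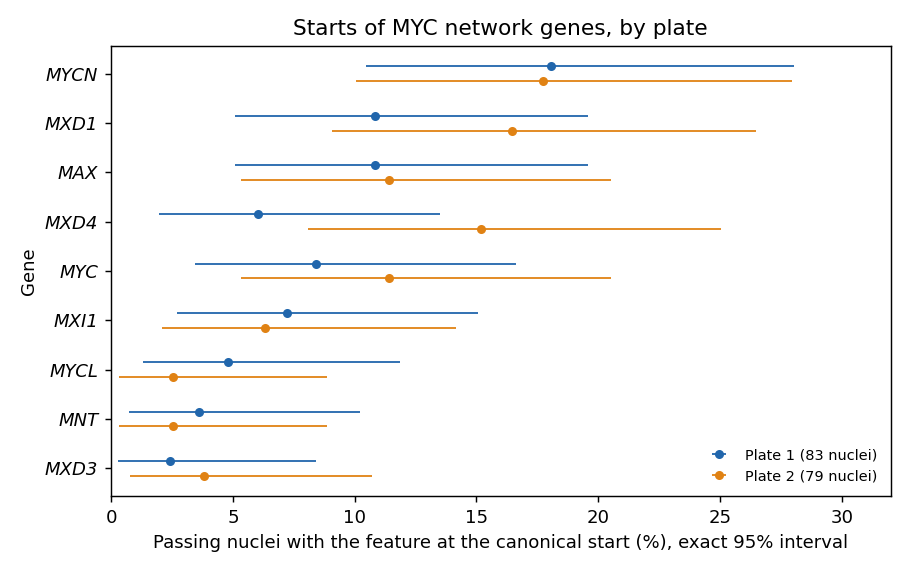
Share of passing nuclei with the feature at the canonical start (percent, exact 95% intervals) for the genes of the MYC, MAX and MLX family that had one, for plate 1 (83 nuclei) and plate 2 (79 nuclei). MYCN stands highest on both plates, at 18.1% and 17.7%, and the plate intervals overlap for each gene drawn.

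The label of the line was compared with marker genes. Of 3 genes active in adherent cells, VIM, which encodes the filament protein vimentin, had a canonical start feature seen in 11 passing nuclei. LAMC1, a laminin chain gene, had one seen in 10, and each was seen in 6 outside the paired wells. CAV1, which encodes caveolin, had none at its canonical start but one at a further start, seen in 22. Of all protein-coding genes, 43.9% had a feature at the canonical start and 17.8% one seen in at least 10 passing nuclei. With so few genes, cell state was not tested. None of 8 blood cell genes (PTPRC, SPI1, GATA1, TAL1, RUNX1, CD34, MPO and ITGA2B) had a feature at its canonical start, beside 43.9% of all protein-coding genes, and at any further start RUNX1 reached 8 nuclei and ITGA2B 6.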

How the data were processed

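The authors deposited counts of read pairs for each nucleus in each feature, with no normalization. They trimmed reads with fastp 0.19.5, aligned them to hg38 with bowtie2 2.3.4.3, removed mitochondrial reads, reads of mapping quality under 20 and, with Sambamba 0.7.0, duplicates, called peaks with MACS2 on all nuclei and counted pairs with featureCounts 1.6.0. A pair counted in each feature it overlapped, so overlapping features share pairs. All count columns were matched to a nucleus (0 left over).

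Counts were binarized, peaks of 1 nucleus dropped, and nuclei with more than 300 peaks kept, with Python 3.11.15, pandas 2.3.3 and SciPy 1.17.1. Starts and genes came from GENCODE 44, which holds MYC, PVT1 and 17 of 21 other listed gene names of the locus. Distances run from the first annotated MYC start to a feature's centre. Described individually were the members at the MYC and PVT1 starts and the 10 held by the most passing nuclei, then those of the listed genes and stretches. With 1 sample per plate no test was made. The calculation of intervals was tested on simulated data. Members and lists were chosen with earlier results of these data known.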

Additional observations from a re-analysis of the deposited data

Results flagged for a closer look

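The 30 nuclei that did not pass entered above only the filter on peaks of a single nucleus and the count of peaks seen in exactly 2 nuclei. They held 11 read pairs in the members, above the 3 counts that a count of 0 allows. The peaks had been called on these nuclei too, so that some read pairs in features follow from how the features were made. These were 4 pairs on plate 1 and 7 on plate 2, they came from 5 nuclei, and 1 of them lay in the member at the canonical MYC start. They were 0.230% of the 4788 read pairs of these nuclei in features (0.115 to 0.411, exact 95% interval), and the interval holds the 0.188% of the passing nuclei. What these nuclei are was not tested.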

How the results depend on the processing

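Of 73 alternative values for 11 results, 46 stayed within the spread between plates, their intervals or a factor of 1.5, and 27 moved. Of the 27, a pair of ratios crossed 1, that of members to all features with peaks of at least 5 nuclei and that of upstream to downstream members without the paired wells. With 600 read pairs drawn per nucleus (146 nuclei), the share with the canonical MYC start fell from 9.88% to 1.70%, that with the PVT1 start from 3.70% to 0.663% and that with any member from 85.2% to 62.8%. Asking for at least 2 read pairs gave 1.85%, 0% and 33.3%, left 0 members in at least 10 nuclei, and gave 0.853 for the ratio of mean nuclei per member to that over all features (main value 0.932). Any annotated start gave 17.9% for MYC and 8.64% for PVT1. The share with any member was 74.5% over all nuclei and 93.3% over the 119 with more than 1000 peaks. Keeping peaks of at least 5 nuclei gave 75.3% for that share, 0.173% for the share of read pairs (main value 0.188%), a ratio of 1.06, 26.5% for members with a start and 9.80 features per Mb (main value 33.2). Protein-coding starts alone gave 4.82% for members with a start. Leaving out the paired wells, which leaves 91 of 162 nuclei, gave 76.9% for nuclei with any member, a ratio of 0.894, 4 members in at least 10 nuclei, 1.06 for the mean upstream over that downstream (main value 0.889) and 2 family starts in at least 10 nuclei (main value 6). A window of 1 Mb on each side of the MYC start (64 features) gave 59.9%, 0.0606%, a ratio of 0.820 and 6 members in at least 10 nuclei. No paired analysis was possible because no result came from a test between groups and the number of a nucleus ties nothing across plates. Depth limits each count here, since most entries were a single read pair, and no difference between members of similar counts can be read from them.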

Other observations

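Several members of the noncoding and downstream genes were not described above. A member at a further PCAT1 start 858.6 kb upstream of MYC was seen in 4 nuclei on each plate, with 6 of the 8 outside the paired wells. An exonic CCDC26 member at 1568 kb downstream was seen in 6 nuclei, all on plate 2, with 2 outside the paired wells. Within ASAP1, an intronic member at 2540 kb was seen in 5 and 4 nuclei, with 6 outside the paired wells. A pair of overlapping ASAP1 members at about 2571 kb was held by the same 9 nuclei, of which 1 was outside the paired wells. The ASAP1 members together were held by 27.2% of passing nuclei (44 of 162, 20.5 to 34.7) and by 18 of 91 outside the paired wells. The CYRIB members were held by 32.7% (53 of 162, 25.6 to 40.5) and by 23 of 91 outside the paired wells.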
